A study of Homo sapiens with 17 samples.

Results

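The 10 genes followed here are widely used as readouts of YAP and the TEAD factors, and their values come from cells of the SNU-761 line, which was established from a human liver carcinoma. They are CCN1, CCN2, ANKRD1, AXL, F3, NUAK2, CRIM1, MYOF, IGFBP3 and FJX1. They were chosen by Ensembl ID, with earlier results of these data known, and all 10 were found among the 19867 IDs of the table. The measure was newly made RNA. In SLAM-seq, cells take up thiouridine, iodoacetamide alkylates it in the RNA, and the sequencer then reads C where T is encoded, so that T>C reads mark RNA made while the label was present.

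The study holds 17 libraries in 2 experiments, all from wild-type SNU-761 cells. In the VT107 experiment, labelled cells received DMSO, VT107 at 0.1 µM or VT107 at 2.15 µM, with 2 libraries per group. In the intetumumab experiment they received isotype IgG1 at 5 µg/ml, intetumumab at 1.5 µg/ml or intetumumab at 5 µg/ml, with 3 libraries per group. Treatment lasted 4 h, and each experiment had 1 further library from untreated cells without label. VT107 is a small molecule that inhibits all TEAD factors. Intetumumab is an anti-integrin antibody, used here as a biosimilar that the labels describe as directed against ITGAV and ITGB3, the chains of a receptor for matrix proteins. No label states whether replicates are separate cultures. The p-values then reflect the spread of these libraries alone, and it may be technical. In a bulk sample, fewer cells that transcribe a gene and less new RNA per cell cannot be told apart.

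YAP and TAZ are coactivators without a DNA-binding domain of their own. They reach DNA by binding TEAD transcription factors, and the kinases of the Hippo pathway keep them out of the nucleus. Attachment to matrix through integrins and tension in the actin skeleton favour their entry, so TEAD inhibition and integrin blockade meet this pathway at different points. CCN1, CCN2 and ANKRD1 are the most used reporters of its activity.

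Total counts were between 435343 and 1778876 in the labelled libraries, and both extremes were in groups of the higher doses. In the VT107 experiment 9 of the 10 genes lay at or above percentile 89.7 of all tested genes by mean count, and FJX1 at percentile 22.8. Without label, the 10 genes together gave 44 of 10702 reads in the VT107 experiment and 9 of 4553 in the intetumumab experiment. That was 0.502% and 0.212% of their mean count in labelled libraries, against 0.949% and 0.628% for all genes. The highest share for a single gene was 1.36% (MYOF, 3 reads without label). In the intetumumab experiment 8 of the 10 genes had 0 unlabelled reads, which allows up to 3 reads each. The counts of the 10 genes therefore stand above the T>C reads found without label, as far as 1 unlabelled library per experiment shows. The margin was narrowest for FJX1, with 0 reads without label but as few as 11 in a labelled intetumumab library. Only T>C reads were counted, so a difference in sequencing depth between unlabelled and labelled libraries was not accounted for.

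The start regions of the genes were searched for GGAATG, the core of the site that TEAD factors are known to bind, on both strands (CATTCC on the other). Windows of 250 bases before and 50 bases after a start site came from RefSeq for GRCh38.p14, and 8 of the 10 members were matched, CCN1 and CRIM1 not. At least 1 match was found for 4 members, CCN2, ANKRD1, AXL and NUAK2, where AXL had it at the second of its 2 start sites. Of 35116 windows of that length, 4928 held at least 1 match, 482 (1.37%) at least 2 and 45 (0.128%) at least 3. CCN2 held 3, which begin 169, 104 and 95 bases before the start site. ANKRD1 held 2, which begin 220 and 128 bases before it. NUAK2 also held 2, beginning 197 and 18 bases before it, the first on the other strand. F3 held 0. CCN2 is shown as the member that passed the test with VT107, ANKRD1 and NUAK2 as the others with 2 matches, and F3 as a member with 0. Each line gives the 250 bases before the start site, 5′ to 3′ on the gene's strand, with matches in capitals. The stretch shown for CCN2 lies at chr6:131951373-131951622 (minus strand) and that for ANKRD1 at chr10:90921088-90921337 (minus strand). The stretch for NUAK2 lies at chr1:205321746-205321995 (minus strand) and that for F3 at chr1:94541760-94542009 (minus strand).
CCN2: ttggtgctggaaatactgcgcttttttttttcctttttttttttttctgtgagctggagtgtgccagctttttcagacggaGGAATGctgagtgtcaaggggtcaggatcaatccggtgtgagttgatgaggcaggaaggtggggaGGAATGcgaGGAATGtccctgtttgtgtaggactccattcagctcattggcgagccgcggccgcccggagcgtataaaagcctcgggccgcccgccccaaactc
ANKRD1: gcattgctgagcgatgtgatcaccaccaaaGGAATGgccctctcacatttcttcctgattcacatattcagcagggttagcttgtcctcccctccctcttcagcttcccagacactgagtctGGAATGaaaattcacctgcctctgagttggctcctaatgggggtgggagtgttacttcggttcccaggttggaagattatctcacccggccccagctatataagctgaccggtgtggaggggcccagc
NUAK2: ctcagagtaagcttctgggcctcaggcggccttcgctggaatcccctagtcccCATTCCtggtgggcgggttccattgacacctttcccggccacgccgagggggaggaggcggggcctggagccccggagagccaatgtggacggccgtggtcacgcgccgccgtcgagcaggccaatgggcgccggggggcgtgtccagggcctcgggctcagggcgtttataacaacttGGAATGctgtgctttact
F3: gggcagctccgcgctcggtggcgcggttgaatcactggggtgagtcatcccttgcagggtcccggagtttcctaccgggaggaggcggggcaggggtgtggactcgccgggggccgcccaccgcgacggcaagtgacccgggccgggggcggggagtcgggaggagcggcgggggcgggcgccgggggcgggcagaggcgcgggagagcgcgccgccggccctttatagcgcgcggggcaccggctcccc
A match describes these letters only, and whether a TEAD factor binds there was not tested.

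VT107 at 2.15 µM lowered CCN2, and no other member passed the test. CCN2 (connective tissue growth factor; ENSG00000118523, chr6:131948176-131951372 in RefSeq for GRCh38.p14, as are the positions that follow) encodes a secreted matrix-associated protein that binds integrins and growth factors. Its level was 1667 and 1399 CPM (T>C reads per 1000000, after TMM scaling for library composition) in the DMSO libraries and 554 and 606 at 2.15 µM. Both treated libraries lay far below both controls. The gene fell 2.64-fold, from 1533 ± 189 to 580 ± 36.8 CPM (SD, n = 2 each). On the log2 scale this was -1.40 (SE 0.17), with an adjusted p of 0.0310 by edgeR's quasi-likelihood test, where p-values are adjusted over all genes tested and a gene is called under 0.05. Of all 10083 genes tested, 0.109% were called in this comparison, all of them falls, against 1 of the 10 members. DESeq2 also called CCN2 and no other member, where it called 5.32% of the 4609 genes to which it gave an adjusted p. It gave FJX1 none at either dose of either agent against the control. The edgeR call was lost in 5 of 10 alternatives, among them total count scaling (adjusted p = 0.0597), without DMSO replicate 1 (0.101) and without replicate 1 or 2 of the 2.15 µM group (0.312 and 0.240), while the log2 fold change stayed between -1.24 and -1.52 in all 10 alternatives, whose adjusted p ran from 6.57e-12 to 0.312.

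At 0.1 µM the new RNA of CCN2 was already at 790 and 747 CPM, so that the libraries of the 3 groups did not overlap. Its log2 fold change against DMSO was -0.995 (SE 0.17, adjusted p = 0.120), and thus CCN2 was not called. By edgeR, 0 of the 10 members passed at this dose, as did 0% of all genes. An unadjusted p under 0.05 was reached by 1 member with a lower and 2 with a higher value, against 6.11% and 5.98% of all genes. DESeq2, which called 3.81% of 4805 genes with an adjusted p, called CCN2 alone among the members (adjusted p = 1.58e-05; over the 10 alternatives it ran from 1.58e-05 to 0.299). Both doses were set against the same DMSO libraries.

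CCN1 (CYR61; ENSG00000142871, chr1:85580761-85583950), the closest relative of CCN2 in the list, is a secreted integrin-binding protein as well. It stood at 2811 and 4027 CPM in DMSO, at 4001 and 3555 at 0.1 µM and at 2733 and 3053 at 2.15 µM. Both VT107 groups overlapped with DMSO, whose own 2 libraries were the farthest apart. At 2.15 µM the log2 fold change was -0.24 (SE 0.18, adjusted p = 0.676), with a 95% interval from -0.66 to 0.17. Its value was -0.47 without DMSO replicate 1 and turned to 0.04 without DMSO replicate 2.

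**Figure D1:**
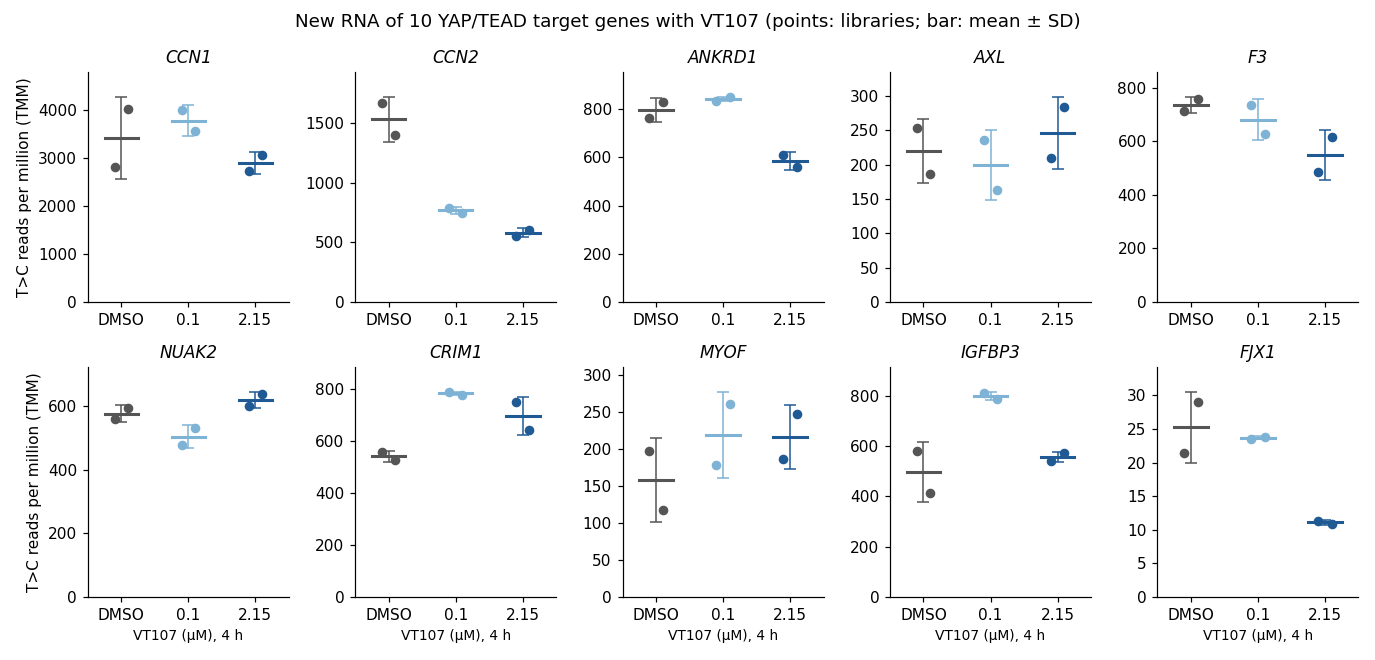
Each panel plots 1 gene in the VT107 experiment, with CPM of T>C reads against treatment; points are libraries, bars are means and whiskers SD (n = 2). CCN2 stands between 1399 and 1667 in DMSO and at or below 790 in all treated libraries, while CCN1 overlaps between groups.

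The ratio of CCN2 to CCN1 reads within a library does not depend on how libraries are scaled. It was 0.593 and 0.347 in the DMSO libraries. In the 4 VT107 libraries it was 0.198, 0.210, 0.203 and 0.199. All treated libraries were thus close to each other and below both controls, and the 2 doses overlapped. In the intetumumab experiment the ratio was 0.126, 0.115 and 0.118 with the isotype. It was 0.0892, 0.0865 and 0.124 after 1.5 µg/ml and 0.0732, 0.100 and 0.237 after 5 µg/ml, so that both doses overlapped with the isotype. Replicate 3 at 5 µg/ml, with the highest ratio, had both the most CCN2 and the least CCN1 of its group. The ratio was chosen after the values were seen and carries no test.

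**Figure D2:**
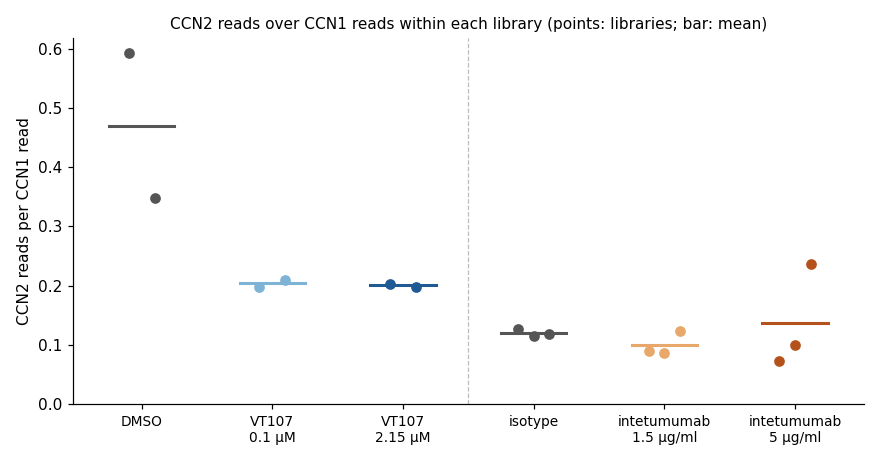
CCN2 reads divided by CCN1 reads in each labelled library, grouped by treatment on the x axis; points are libraries and bars group means, and the dashed line parts the experiments. The 4 VT107 libraries lie between 0.198 and 0.210, below the DMSO libraries at 0.347 and 0.593, and the intetumumab libraries spread around the isotype.

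The remaining members inside the cell are ANKRD1 (ENSG00000148677, chr10:90912096-90921087), an ankyrin repeat protein best known from heart muscle, and NUAK2 (ENSG00000163545, chr1:205302063-205321745), a kinase related to AMPK. ANKRD1 was at 762 and 830 CPM in DMSO, at 835 and 849 at 0.1 µM and at 610 and 558 at 2.15 µM. The higher dose lay below DMSO, and the lower dose just above it. The log2 fold changes were 0.08 (SE 0.17, adjusted p = 0.895) and -0.45 (SE 0.17, adjusted p = 0.353). NUAK2 was at 557 and 593 CPM in DMSO, 477 and 530 at 0.1 µM and 601 and 637 at 2.15 µM. Its values at the 2 doses lay on opposite sides of DMSO, with log2 fold changes of -0.19 (SE 0.18, adjusted p = 0.735) and 0.11 (SE 0.18, adjusted p = 0.871).

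Among membrane proteins, F3 (tissue factor, which starts blood clotting; ENSG00000117525, chr1:94529173-94541759) was at 714 and 758 CPM in DMSO, 734 and 627 at 0.1 µM and 484 and 614 at 2.15 µM. The higher dose lay below DMSO without overlap, at -0.42 on the log2 scale (SE 0.20, adjusted p = 0.467). CRIM1 (ENSG00000150938, chr2:36355778-36551135), a transmembrane protein that binds bone morphogenetic proteins, was at 556 and 527 CPM in DMSO, 788 and 778 at 0.1 µM and 749 and 643 at 2.15 µM. All 4 treated libraries lay above DMSO, yet the adjusted p-values by edgeR were 0.318 and 0.490 (log2 fold changes 0.53 and 0.36, SE 0.18 each). AXL (ENSG00000167601, chr19:41219223-41261766), the receptor tyrosine kinase for GAS6, and MYOF (ENSG00000138119, chr10:93306429-93482334), a ferlin of membrane repair, overlapped with DMSO at both doses. AXL was at 253 and 187 CPM in DMSO, 236 and 163 at 0.1 µM and 209 and 284 at 2.15 µM. MYOF was at 197 and 118, at 178 and 260, and at 186 and 247 CPM in the same groups. Libraries of a group differed more than the groups did, with log2 fold changes between -0.14 and 0.47 and SE of 0.29 to 0.33. The sign for AXL changed in 2 of the 10 alternatives at either dose.

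The last 2 members are secreted or act in the secretory path. IGFBP3 (ENSG00000146674, chr7:45912245-45921272), which binds insulin-like growth factors in plasma, was at 582 and 414 CPM in DMSO, 812 and 788 at 0.1 µM and 541 and 571 at 2.15 µM. Only the lower dose lay above both controls, at 0.68 on the log2 scale (SE 0.21, adjusted p = 0.289). FJX1 (ENSG00000179431, chr11:35618460-35620865), the human relative of the fly gene four-jointed, rests on few reads. It had 20 and 30 reads in DMSO, 20 and 19 at 0.1 µM and 21 and 14 at 2.15 µM, or 25.2 ± 5.32, 23.7 ± 0.220 and 11.1 ± 0.400 CPM. The higher dose lay below all other libraries, with -1.18 on the log2 scale (SE 0.50, adjusted p = 0.423).

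By counts of libraries, 4 of the 10 members lay below DMSO without overlap at 2.15 µM, against 20.6% of all genes, and 2 lay above, against 24.1%. At 0.1 µM these were 2 and 3 members, against 19.3% and 20.4%. The 4 were CCN2, ANKRD1, F3 and FJX1, and 3 of them had an unadjusted p under 0.05 (6.3% of all genes), while 0 members had one with a higher value (5.28%). The median log2 fold change of the 10 members was -0.07 at 2.15 µM and -0.01 at 0.1 µM, beside 0.03 and 0.01 over all genes. Without DMSO replicate 1 the median at 2.15 µM was -0.20 for the members and 0.05 for all genes, without replicate 1 of the 2.15 µM group -0.01 and 0.02, and without its replicate 2 -0.19 and 0.01. At 0.1 µM, leaving out single libraries gave member medians between -0.04 (without DMSO replicate 1) and 0.14 (without DMSO replicate 2). Total count scaling raised the median of all genes from 0.03 to 0.18 at 2.15 µM and that of the members from -0.07 to 0.09.

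Set directly against 0.1 µM, the 2.15 µM libraries were lower without overlap in 7 of the 10 members, where 19% of all genes were, and higher in 1 (20.1%). The 7 were CCN1, CCN2, ANKRD1, F3, CRIM1, IGFBP3 and FJX1. The median log2 difference was -0.35, beside -0.01 over all genes. This is not a fall below DMSO in all 7. CCN1, ANKRD1, CRIM1 and IGFBP3 stood above DMSO at 0.1 µM (log2 fold changes 0.14, 0.08, 0.53 and 0.68). CCN2, F3 and FJX1 stood below it. At 2.15 µM CRIM1 and IGFBP3 were still above DMSO (0.36 and 0.16). Against DMSO the member medians were -0.01 at 0.1 µM and -0.07 at 2.15 µM. ANKRD1 had the smallest p of the members, at a log2 difference of -0.53 (SE 0.17, adjusted p = 0.905). By edgeR, 0 members and 0% of all genes were called, 3 members were lower at an unadjusted p under 0.05 (2.76% of all genes) and 0 higher (2.54%), and DESeq2 called 0 members and 0.0694% of all genes. For CCN2 the log2 difference was -0.41 (SE 0.17, adjusted p = 0.939), with a 95% interval, not adjusted over genes, from -0.80 to -0.02.

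Intetumumab at 5 µg/ml lowered CCN1. Its level was 3024, 3134 and 2889 CPM with the isotype, 2020, 2048 and 1722 after 1.5 µg/ml and 1636, 1750 and 1147 after 5 µg/ml. No treated library reached the isotype, and the 2 doses overlapped in 1 library. CCN1 fell 2.0-fold at 5 µg/ml, from 3016 ± 123 to 1511 ± 320 CPM (SD, n = 3 each; log2 fold change -0.998, SE 0.14, adjusted p = 0.0231 by edgeR). Of 9024 genes tested, 0.0887% were called and 0.0665% were called lower, against 1 of the 10 members. The call was lost without isotype replicate 1, 2 or 3 (adjusted p = 0.128, 0.179 and 0.126). It was also lost without the first or second library at 5 µg/ml (0.144 for replicate 1, 0.0613 for replicate 2). In each of these fits edgeR called 0 of all genes tested, so the loss was not particular to CCN1. Under total count scaling at VT107 2.15 µM, by contrast, CCN2 lost its call while edgeR called 5 other genes. Over all 12 alternatives the log2 fold change of CCN1 stayed between -0.83 and -1.12, and its adjusted p ran from 8.56e-08 to 0.179.

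At 1.5 µg/ml CCN1 had -0.64 on the log2 scale (SE 0.14, adjusted p = 0.310). At this dose edgeR called 0 members and 0% of all genes, with 5 members lower at an unadjusted p under 0.05 (3.07% of all genes) and 1 higher (2.4%). DESeq2 called 5 members there, CCN1, CCN2, ANKRD1 and F3 as lower and IGFBP3 as higher, and 1.47% of the 2376 genes with an adjusted p. At 5 µg/ml DESeq2 called CCN1, CCN2, ANKRD1, F3 and NUAK2, all lower, and 3.45% of 2901 genes.

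CCN2 was at 381, 362 and 341 CPM with the isotype, 180, 177 and 213 after 1.5 µg/ml and 120, 176 and 271 after 5 µg/ml. Every treated library lay below the isotype, and the spread was widest at 5 µg/ml. The log2 fold changes were -0.93 (SE 0.24, adjusted p = 0.424) and -0.91 (SE 0.24, adjusted p = 0.264). The fewest reads behind a library were 52, in replicate 1 at 5 µg/ml.

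ANKRD1 was at 170, 196 and 184 CPM with the isotype, 114, 91.5 and 113 after 1.5 µg/ml and 96.8, 92.0 and 105 after 5 µg/ml. The isotype libraries stood apart from all 6 treated ones, which overlapped with each other. Its log2 fold changes were -0.79 (SE 0.19, adjusted p = 0.377) and -0.90 (SE 0.20, adjusted p = 0.156). NUAK2 was at 231, 286 and 262 CPM with the isotype, 175, 171 and 119 after 1.5 µg/ml and 124, 162 and 111 after 5 µg/ml. It too did not overlap with the isotype, at log2 fold changes of -0.73 (SE 0.21, adjusted p = 0.576) and -0.96 (SE 0.22, adjusted p = 0.163).

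F3 was at 1966, 2154 and 2085 CPM with the isotype, 1461, 1575 and 1482 after 1.5 µg/ml and 1415, 1312 and 1575 after 5 µg/ml. These differences were smaller than those of the genes above but replicates lay close together, with log2 fold changes of -0.46 (SE 0.10, adjusted p = 0.310) and -0.53 (SE 0.10, adjusted p = 0.109). IGFBP3 lay on the other side. It was at 653, 580 and 567 CPM with the isotype, 895, 790 and 758 after 1.5 µg/ml and 832, 817 and 731 after 5 µg/ml. All 6 treated libraries lay above the isotype, with log2 fold changes of 0.44 (SE 0.13, adjusted p = 0.556) and 0.40 (SE 0.13, adjusted p = 0.339).

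**Figure D3:**
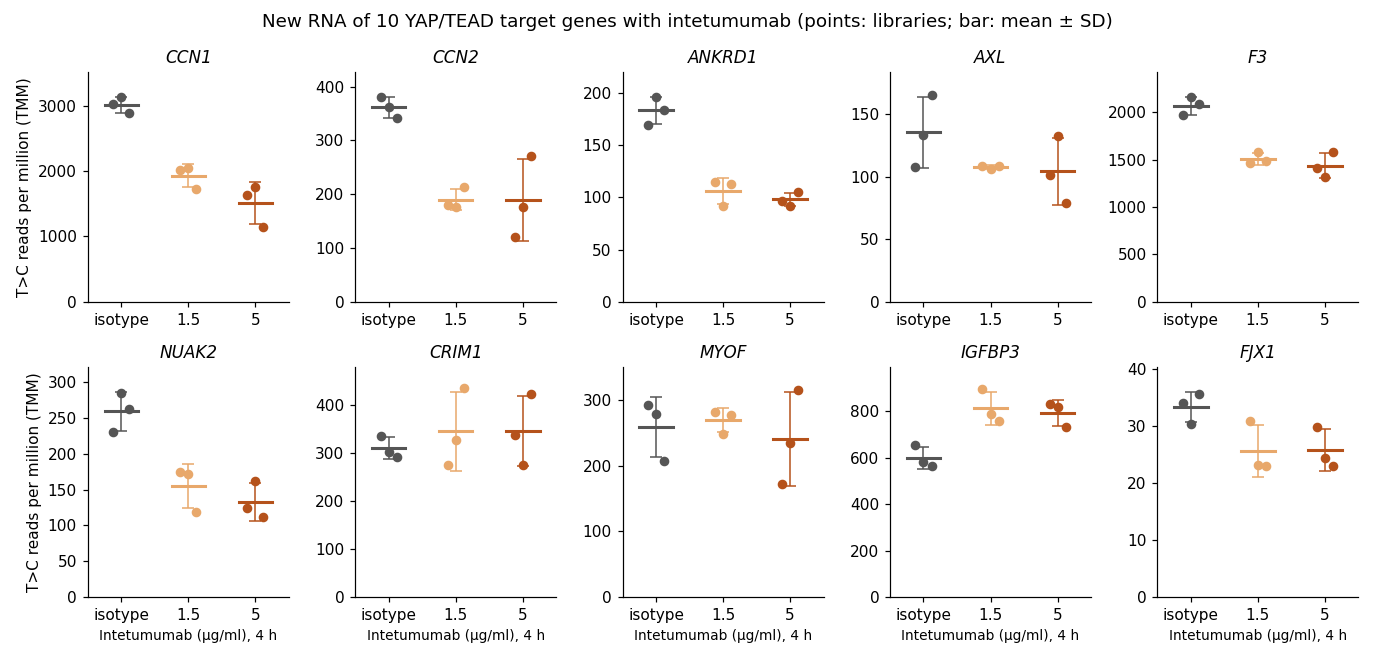
Each panel plots 1 gene in the intetumumab experiment, with CPM of T>C reads against treatment; points are libraries, bars are means and whiskers SD (n = 3). For CCN1, CCN2, ANKRD1, F3 and NUAK2 every treated library lies below every isotype library, and for IGFBP3 every treated library lies above.

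The other 4 members varied less between these groups. AXL ranged from 79.4 to 165 CPM over the 9 libraries, MYOF from 173 to 316 and CRIM1 from 274 to 436, and the groups of each overlapped at both doses. Their log2 fold changes against the isotype lay between -0.38 and 0.16. FJX1, with 11 to 33 reads per library, stood at 33.4 ± 2.71 CPM with the isotype and 25.8 ± 3.67 at 5 µg/ml (log2 fold change -0.39, SE 0.32, adjusted p = 0.756). Its groups did not overlap there, but the lowest isotype library (30.4 CPM) and the highest treated one (30.0 CPM) were close.

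In counts, 6 of the 10 members lay below the isotype without overlap at 5 µg/ml, against 8.26% of all genes, and 1 lay above, against 7.64%. The figures at 1.5 µg/ml were 5 and 1, against 6.72% and 5.62%. An unadjusted p under 0.05 at 5 µg/ml was found for 5 members with lower values (4.9% of all genes) and 1 with a higher value (4.33%). The median log2 fold change of the members was -0.46 at 5 µg/ml and -0.42 at 1.5 µg/ml, beside 0.00 and 0.01 over all genes. Both doses share the isotype libraries. On the lower side were CCN1, CCN2, ANKRD1, F3 and NUAK2 at either dose, and FJX1 at 5 µg/ml in addition. By mean count all members but FJX1 (percentile 30.3) lay at or above percentile 77.5 of the genes tested here. No share was computed over genes of like abundance.

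Between the 2 doses of intetumumab no member had groups that did not overlap, where 5.34% of all genes were lower and 5.42% higher without overlap. By edgeR 0 members were called (0.0111% of all genes), 1 member was lower at an unadjusted p under 0.05 (2.95% of all genes) and 0 higher (2.69%), and DESeq2 called 0 members and 0.0443% of all genes. That member was CCN1, with a log2 difference of -0.36 between 5 and 1.5 µg/ml (SE 0.14, adjusted p = 0.846). The median of the 10 members was -0.06, beside 0.00 over all genes.

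**Figure D4:**
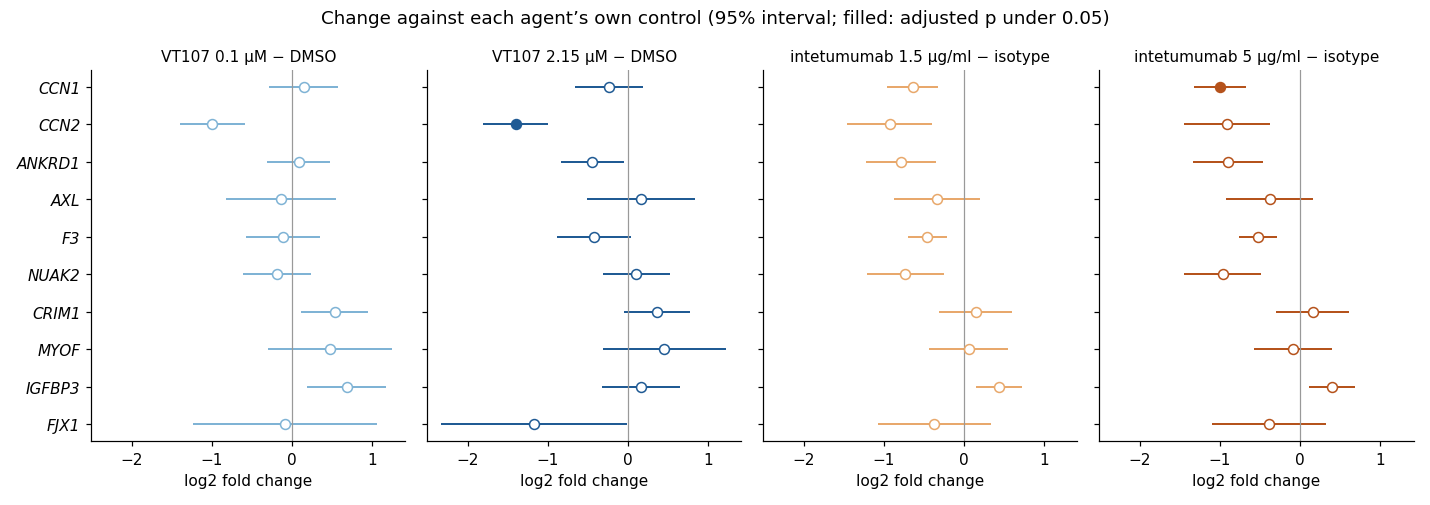
Log2 fold changes of the 10 genes (x axis) against the control of the same experiment, 1 panel per agent and dose; points are edgeR estimates, lines 95% intervals and filled points genes with an adjusted p under 0.05. CCN2 is filled at VT107 2.15 µM (-1.40) and CCN1 at intetumumab 5 µg/ml (-0.998), and the other estimates are open.

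Whether the 2 agents moved the genes differently was asked directly, by subtracting the log2 fold change at intetumumab 5 µg/ml from that at VT107 2.15 µM in 1 fit of all 15 labelled libraries. By edgeR 0 of the 10 members were called, beside 0.0782% of 10227 genes, 0.0391% with a negative difference. At an unadjusted p under 0.05, 2 members had a positive difference (4.89% of all genes) and 0 a negative one (4.18%). NUAK2 had the largest, 1.07 (SE 0.28, 95% interval 0.48 to 1.67, adjusted p = 0.228), and was the single member that DESeq2 called (adjusted p = 0.0132; over its 15 alternatives 0.0132 to 0.640), beside 1.43% of 7252 genes. CCN1 followed with 0.76 (SE 0.24, interval 0.26 to 1.27, adjusted p = 0.325). For CCN2 the difference was -0.49 (SE 0.33, adjusted p = 0.722), with an interval from -1.19 to 0.21. By edgeR, CCN2 passed the test with VT107 and CCN1 with intetumumab, but neither was shown to respond differently to the 2 agents. For F3 the difference, which changed sign in 1 alternative, was 0.11, with an interval from -0.30 to 0.51.

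**Figure D5:**
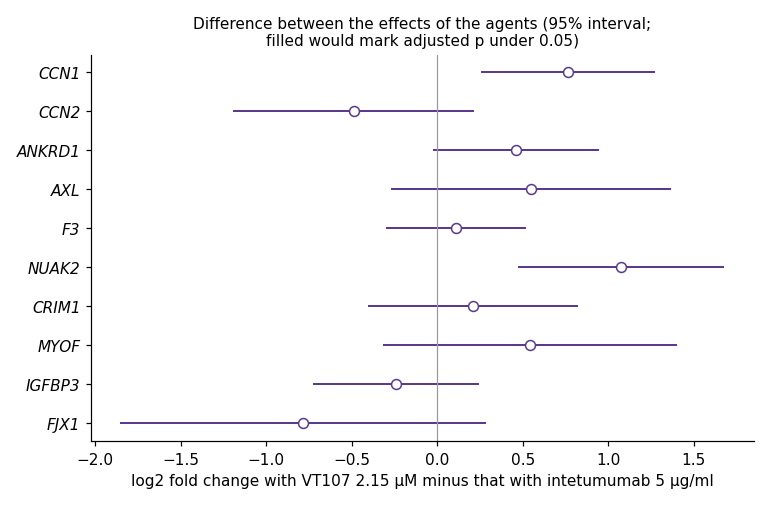
Difference between the log2 fold change with VT107 at 2.15 µM and that with intetumumab at 5 µg/ml (x axis) for each of the 10 genes, with 95% intervals from 1 edgeR fit of all 15 labelled libraries. The intervals of CCN1 (0.26 to 1.27) and NUAK2 (0.48 to 1.67) lie above 0, and no gene passed at an adjusted p under 0.05.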

How the data were processed

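T>C read counts from 17 SLAM-seq libraries of 3′ ends (QuantSeq) were used. The authors deposited raw counts per Ensembl gene ID, made with the SLAM DUNK pipeline per the labels' design text with GRCh38 named as the build in the submitters' processing notes. Pipeline version, annotation and the number of T>C conversions required: not given in the sources used here. All 17 columns were matched to samples by name, and all counts were used as deposited.

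Each experiment was fitted apart with edgeR 4.0.16 in R 4.3.3: filterByExpr (minimum count 10), TMM scaling and the two-sided quasi-likelihood F-test over all genes that passed, 10083 and 9024, with Benjamini-Hochberg adjustment over all of them. Calls were made where the adjusted p was under 0.05. All 10 members passed the filter. CPM are counts per 1000000 after TMM scaling within an experiment. A log2 fold change is on edgeR's scale, with its SE taken from the F statistic. Groups do not overlap when all libraries of a group lie beyond all of the other. DESeq2 1.42.0 was an alternative. The fits were also run on simulated counts. The changes planted there were larger than any of the members, so that run does not show the power for the changes reported here.

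Labelled libraries held 435343 to 1778876 counts. The limit from a count of 0 covers counting error only, because amplified copies of a molecule are not independent. Replicates differed by more than counting noise (chi-square per degree of freedom 3.66 to 8.52), so each counted as 1 sample. The highest value was that of the 2 DMSO libraries, the control of both VT107 doses. Pairs of isotype libraries had 3.66 to 3.81. Deviations of libraries with the same replicate number correlated at -0.02 to 0.04, so the numbers were not taken to pair samples.

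The members and lists were chosen with earlier results of these data known. Their names come from the rule that chose them, since the table of gene names paired 0 Ensembl IDs with a symbol. For that reason 19 further pathway genes and the liver and other cell type markers that were also listed were not analysed here. By the naming rule, every member is given, with at most 2 other IDs for likeness of pattern.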

Additional observations from a re-analysis of the deposited data

How the results depend on the processing

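Under 6 alternatives and with each library of the groups left out in turn, the count of called members moved between 0 and 5. At VT107 0.1 µM (0 members) DESeq2 called 1 and the fit without a filter on low counts called 1, CCN2 in both; the latter called 171 of 13575 genes, against 0 of 10083. At VT107 2.15 µM (1 member) total count scaling and the replicate block (adjusted p of CCN2 0.0929) each left 0. Of all genes, 5 of 10083 were called under either, against 11 in the main fit. Without single libraries the log2 fold change of CCN2 there lay between -1.27 and -1.52. At intetumumab 1.5 µg/ml (0 members) DESeq2 called 5. At intetumumab 5 µg/ml (1 member) DESeq2 called 5, a fit of all 15 labelled libraries called 2 (CCN1 and ANKRD1, with 15 of 10227 genes called), and leaving out single libraries gave 0 to 1. For the difference between agents (0 members) DESeq2 called 1. The cause of these changes was not tested. The replicate block, a number shared without evidence of pairing, changed no other call of a member. Without 1 VT107 or DMSO library a group holds a single one, which is then assumed to vary like the other groups.

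Of 810 values of single members under alternatives, 35 took the other sign, in 19 of 70 pairs of member and comparison; 0 of these were called with either sign. Against DMSO, CCN2, ANKRD1, F3, NUAK2, CRIM1 and MYOF kept the sign they had at each dose under all alternatives run. Against the isotype, CCN1, CCN2, ANKRD1, AXL, F3, NUAK2, IGFBP3 and FJX1 did so. For ANKRD1 and NUAK2 the signs at the 2 doses of VT107 were opposite. Total count scaling shifted the median of all genes by over 0.1 on the log2 scale in 3 comparisons: from 0.01 to 0.12 at VT107 0.1 µM, from 0.03 to 0.18 at 2.15 µM and from 0.03 to 0.14 for the difference between agents. Dividing genes by a common divisor of their counts altered no count of called members, and the divisor of all 10 members was 1. With 2 or 3 libraries a group and 11 to 33 reads of FJX1 per library, small changes of that gene were not detectable.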

Other observations

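The control libraries of the 2 experiments differed in some of these genes. How far genes in general differed between these controls was not worked out here. Scaled together, CCN2 stood at 1559 ± 219 CPM in DMSO (n = 2) and 355 ± 17.7 with the isotype (n = 3), 4.39-fold apart, and ANKRD1 at 808 ± 35.1 and 180 ± 13.04, 4.49-fold apart. NUAK2 was 2.29-fold higher in DMSO, while F3 was 2.72-fold higher with the isotype (2033 ± 95.8 against 747 ± 18.7 CPM). CCN1 was close in both, at 3466 ± 814 and 2964 ± 101 CPM. CRIM1 and AXL were 1.80-fold and 1.68-fold higher in DMSO. MYOF, FJX1 and IGFBP3 were 1.59-fold, 1.28-fold and 1.16-fold higher with the isotype. Experiment and control agent cannot be told apart in this comparison. On the same joint scale, CCN2 at VT107 2.15 µM was still above the isotype libraries (590 ± 37.3 and 355 ± 17.7 CPM). Treatment and experiment cannot be told apart there either.

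The 10 members together held 0.794% ± 0.0550 of all counts in DMSO, 0.865% ± 0.0361 at VT107 0.1 µM and 0.722% ± 0.0402 at 2.15 µM (SD, n = 2 each). In the other experiment they held 0.701% ± 0.0170 with the isotype, 0.539% ± 0.0146 at 1.5 µg/ml and 0.486% ± 0.00951 at 5 µg/ml (n = 3 each). CCN1 had the highest mean count of the members in both experiments and so weighed most in these shares. In the intetumumab experiment F3 came next and IGFBP3 after it (mean counts 1573, 1211 and 519). A change of the summed share is therefore not a change of each member.

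Over the 15 labelled libraries, after subtraction of each experiment's mean, the gene whose log2 CPM was most like that of CCN2 was ENSG00000062716, at Pearson's r of 0.92. It went from 1047 ± 11.01 CPM in DMSO to 737 ± 87.8 at VT107 2.15 µM and from 320 ± 41.7 with the isotype to 253 ± 38.3 at intetumumab 5 µg/ml. Among the 9 members compared (FJX1 had a mean count under 100), the next highest r was that of ANKRD1 with ENSG00000110697 (0.91), a gene with few reads (33.0 ± 14.8 CPM in DMSO, and 0 reads in all 6 intetumumab libraries). These are the highest of many correlations over libraries that share depth and treatment, and are given as a description.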
